A study of Mus musculus with 2 samples.

Results

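The lipolysis genes described here are 9 genes of the triglyceride breakdown machinery of the fat cell and of its adrenergic control, taken by symbol from a table of 46095 genes: Pnpla2, Pnpla3, Lipe, Mgll, Abhd5, G0s2, Adrb3, Pde3b and Aqp7. All 9 were found in the table. In a fat cell, triglyceride is hydrolysed stepwise at the surface of the lipid droplet. ATGL (Pnpla2) removes the first fatty acid, hormone-sensitive lipase (Lipe) acts mainly on the diglyceride, and monoglyceride lipase (Mgll) releases the last fatty acid and glycerol, which leaves through the channel Aqp7. Catecholamines start the process through beta-adrenergic receptors, Gs, adenylyl cyclase, cAMP and protein kinase A, while insulin restrains it, in part through the cAMP phosphodiesterase Pde3b.

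RNA-seq was done on C3H10 (C3H/10T1/2) cells, a mouse mesenchymal line that turns into adipocytes when induced. The labels give the strain as C57BL/6, which was not checked against the origin of the line. Cells transfected with 100 nM of an antisense oligonucleotide (ASO) against MALAT1 were compared with cells transfected with 100 nM of a negative control (NC) ASO, with 1 library each at day 6 of differentiation. Both cultures carried a transfected ASO and had the same induction for 2 days with isobutylmethylxanthine (IBMX, 0.5 mM, an inhibitor of phosphodiesterases), dexamethasone, troglitazone and insulin, then insulin alone at 10 ng/mL. Which ASO sequence was used for sequencing is not given in the sources used here, and each group is a single library of a single cell line. The libraries held 58147539 (NC) and 61653549 (MALAT1-knockdown) counts. The targeted gene Malat1 had 170402 counts in the NC library and 45396 in the MALAT1-knockdown library, which left 24.7% of the control level. With 1 library per group no difference has a replicate check, so the test compares these libraries and not the conditions, and every interval covers counting error only.

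All 9 lipolysis genes had a lower level in the MALAT1-knockdown library, and 7 were called lower, namely Aqp7, Pnpla3, Adrb3, G0s2, Pde3b, Lipe and Pnpla2. Mgll and Abhd5 were under the 2-fold threshold. A gene was called when the Benjamini-Hochberg adjusted p of a two-sided exact binomial test, run over all genes with at least 10 summed counts, was under 0.05 and its log2 fold change was at least 1 in size. Of the 17356 genes tested, 4.24% were called lower and 2.47% higher by this rule, and among the 12139 genes with a mean of at least 100 counts, a level that every lipolysis gene reached, 1.36% were called lower and 0.247% higher. The median log2 fold change was -1.15 over the 9 genes and -0.003 over all genes tested. Levels are given as CPM, the counts per 1000000 of the TMM-scaled library size. Because these are bulk samples, fewer adipocytes and less of each transcript per adipocyte cannot be told apart. The calls depend on how much cultures vary: with edgeR's exact test and a preset biological coefficient of variation (BCV) of 0.1 the count was 7, with 0.2 it was 2 (Pnpla3 and Aqp7), and with 0.4 it was 0.

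**Figure D1:**
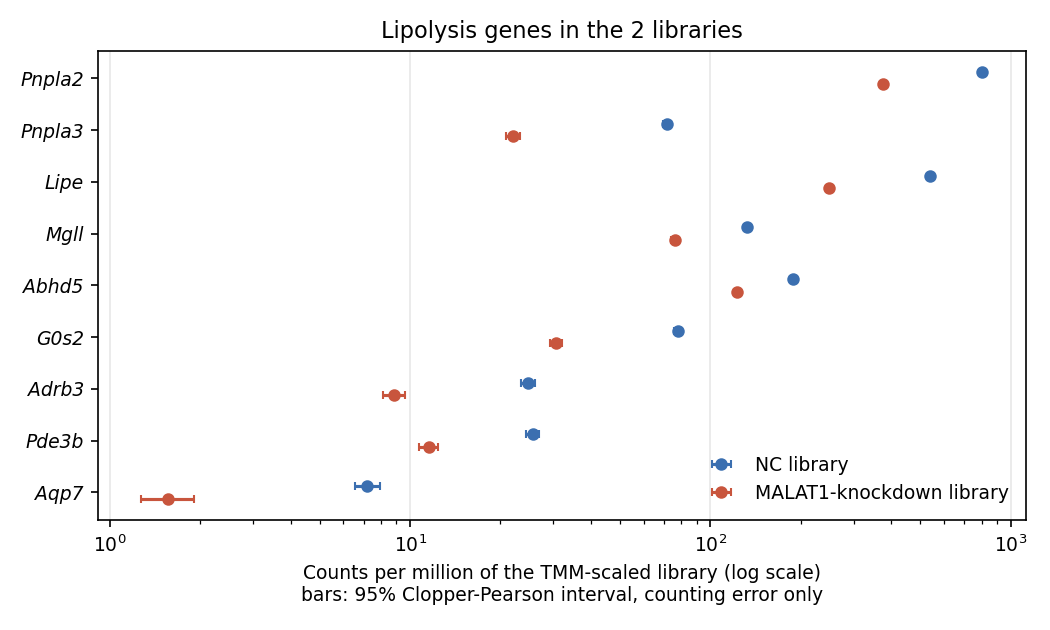
Level of each lipolysis gene in the NC library and the MALAT1-knockdown library, in CPM on a log axis, with bars for the 95% Clopper-Pearson interval. In every row the knockdown point lies to the left of the control point, from Pnpla2 (805 against 375 CPM) at the top to Aqp7 (7.21 against 1.56 CPM) at the bottom, and no pair of intervals overlaps.

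Pnpla2 encodes ATGL, the lipase that starts triglyceride breakdown. It had 46443 counts (805 CPM) in the NC library and 23306 counts (375 CPM) in the MALAT1-knockdown library. The knockdown library was thus at 46.6% of the control, giving a log2 change of -1.10 (95% CI, the counting interval, -1.12 to -1.08). The gene lies on chromosome 7 (bases 141455198 to 141460743, plus strand). Gene positions are those of GENCODE M21 on GRCm38, the build that the processing notes name. As this gene had the most counts of the 9, its start region (RefSeq, GRCm38.p6, chr7:141454938-141455237, plus strand) is shown 5′ to 3′, with capitals for the GC boxes (GGGCGG on either strand) that begin 109 and 26 bases before the annotated start.
Pnpla2 start region: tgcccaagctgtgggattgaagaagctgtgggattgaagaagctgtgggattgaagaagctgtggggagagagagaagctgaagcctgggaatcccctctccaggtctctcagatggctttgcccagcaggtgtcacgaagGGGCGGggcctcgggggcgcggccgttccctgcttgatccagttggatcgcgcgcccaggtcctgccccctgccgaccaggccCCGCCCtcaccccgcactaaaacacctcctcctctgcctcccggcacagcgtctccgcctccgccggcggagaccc

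Pnpla3 encodes a close relative of ATGL, whose transcript is known to follow feeding and insulin. Its counts were 4149 (71.9 CPM) with the NC ASO and 1371 (22.1 CPM) with the MALAT1 ASO. The log2 fold change was -1.70 (95% CI -1.79 to -1.62), or 30.7% of the control level. Relative to Pnpla2 the level of Pnpla3 was lower still, since the ratio of Pnpla2 to Pnpla3 counts was 11.2 in the NC library and 17.0 in the knockdown library (difference 0.60 on the log2 scale, 95% CI 0.51 to 0.69). Pnpla3 lies on chromosome 15 (bases 84167837 to 84187236, plus strand). Its start region (RefSeq, GRCm38.p6, chr15:84167566-84167865, plus strand) is shown because it was the 1 start region of these genes with a full cAMP response element, TGACGTCA, which begins 46 bases before the start. Capitals also mark a CCAAT box and 3 GC boxes.
Pnpla3 start region: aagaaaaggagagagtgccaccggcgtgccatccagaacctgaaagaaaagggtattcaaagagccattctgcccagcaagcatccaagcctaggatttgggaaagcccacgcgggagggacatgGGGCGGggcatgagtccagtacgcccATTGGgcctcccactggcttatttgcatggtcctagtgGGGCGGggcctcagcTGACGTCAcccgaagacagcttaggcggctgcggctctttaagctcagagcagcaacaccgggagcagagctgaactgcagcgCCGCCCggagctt

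The lipases for the later steps differed in size of change. Lipe, which encodes hormone-sensitive lipase, the enzyme that protein kinase A phosphorylates, had 31129 counts (539 CPM) in the NC library and 15432 counts (248 CPM) in the MALAT1-knockdown library. Its log2 fold change was -1.12 (95% CI -1.15 to -1.09), which left 46.0% of the control level. Lipe thus fell by nearly the same factor as Pnpla2, and the count ratio of Lipe to Pnpla2 was 0.670 and 0.662 in the NC and knockdown libraries (difference -0.02, 95% CI -0.05 to 0.02). Mgll, which encodes monoglyceride lipase, had 7639 counts (132 CPM) and 4722 counts (76.0 CPM), giving a log2 change of -0.80 (95% CI -0.85 to -0.75). At 57.4% of the control level it did not reach the 2-fold threshold. The ratio of Lipe to Mgll counts went from 4.08 to 3.27 between the libraries, with a difference of -0.32 on the log2 scale (95% CI -0.38 to -0.26). Lipe lies on chromosome 7 (bases 25379527 to 25398710, minus strand) and Mgll on chromosome 6 (bases 88724412 to 88828360, plus strand).

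ATGL is governed by a coactivator and an inhibitor, and their transcripts stood at unlike levels relative to each other in the 2 libraries. Abhd5, which encodes the coactivator CGI-58, had 10839 counts (188 CPM) in the NC library and 7597 counts (122 CPM) in the MALAT1-knockdown library. With a log2 fold change of -0.62 (95% CI -0.66 to -0.58) and 65.1% of the control level, it had the smallest difference of the 9 genes and was not called. G0s2, which encodes the inhibitor, had 4487 counts (77.8 CPM) and 1897 counts (30.5 CPM), giving a log2 change of -1.35 (95% CI -1.43 to -1.27), and was called lower at 39.3% of the control level. The ratio of Abhd5 to G0s2 counts was therefore 2.42 in the control against 4.0 after knockdown, a difference of 0.73 (95% CI 0.64 to 0.82) that needs no library scaling. Per count of Pnpla2, coactivator counts were higher and inhibitor counts lower in the knockdown library. The ratio of Pnpla2 to Abhd5 counts was 4.28 in the control against 3.07 after knockdown (difference -0.48, 95% CI -0.53 to -0.43), and that of Pnpla2 to G0s2 was 10.4 and 12.3 (difference 0.25, 95% CI 0.17 to 0.33). Abhd5 lies on chromosome 9 (bases 122351608 to 122381524, plus strand). G0s2 lies on chromosome 1 (bases 193272161 to 193273217, minus strand), inside the span of Lamb3 on the plus strand, whose counts were 482 and 243, or 10.7% and 12.8% of those of G0s2.

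The receptor and the phosphodiesterase of the adrenergic axis, which act on cAMP in opposite directions, were both called lower. Adrb3, the beta-adrenergic receptor typical of rodent fat cells, had 1428 counts (24.7 CPM) in the NC library and 548 counts (8.82 CPM) in the MALAT1-knockdown library. Its log2 fold change was -1.49 (95% CI -1.63 to -1.35), at 35.7% of the control level. Pde3b, which breaks down cAMP in fat cells under the control of insulin, had 1476 counts (25.6 CPM) and 717 counts (11.5 CPM), giving a log2 change of -1.15 (95% CI -1.28 to -1.02). By counting error alone the receptor was lower by more than the phosphodiesterase, with a ratio of Adrb3 to Pde3b counts of 0.967 in the control against 0.764 after knockdown (difference -0.34, 95% CI -0.54 to -0.15). With counts divided by 4, as a stand-in for duplicated reads, the interval of this difference held 0 (95% CI -0.74 to 0.06). Adrb3 lies on chromosome 8 (bases 27225776 to 27250616, minus strand) and Pde3b on chromosome 7 (bases 114415281 to 114539251, plus strand).

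Aqp7, the channel that lets glycerol out of the fat cell, had the largest fold change of the 9 genes and the fewest counts. It had 416 counts (7.21 CPM) with the NC ASO, against 97 counts (1.56 CPM) with the MALAT1 ASO. The log2 fold change of -2.20 (95% CI -2.54 to -1.89) left 21.7% of the control level, and it ranked 243rd from the lowest among the 17356 genes tested. The gene lies on chromosome 4 (bases 41033074 to 41048139, minus strand). One of its RefSeq start regions (GRCm38.p6, chr4:41047913-41048212, minus strand) is shown because it holds the core AGGTCA of nuclear receptor sites more than once, in capitals on the opposite strand as TGACCT, at 223 and 101 bases before the start.
Aqp7 start region: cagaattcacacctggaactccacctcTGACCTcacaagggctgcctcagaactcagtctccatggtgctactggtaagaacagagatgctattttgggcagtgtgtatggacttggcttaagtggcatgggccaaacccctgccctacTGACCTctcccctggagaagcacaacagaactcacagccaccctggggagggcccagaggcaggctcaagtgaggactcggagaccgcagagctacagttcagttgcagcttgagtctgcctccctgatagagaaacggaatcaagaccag

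Start regions were found for 7 of the 9 genes (10 windows of 250 bases before to 50 bases after a start, RefSeq), and none for Adrb3 and Pde3b. All motifs were sought on both strands. An exact match to the PPAR response element, a direct repeat of AGGTCA with 1 base between the copies, was in 0 of the 10 windows. It was in only 13 of the 32851 windows of all genes (0.0396%), so 0 of 10 does not set these genes apart. Sites with any changed letter were not sought, so the windows may still hold such elements. A single AGGTCA was in 3 of the 10, from Aqp7 and Abhd5, against 16.3% of all windows. The Aqp7 windows overlap and share a site, 223 bases before 1 start and 49 bases before the other. This site was therefore counted in both windows. TGACGTCA was in 1 of the 10 against 1.79%, and its core TGACG, which TGACGTCA contains, in 4 of the 10 against 20.8%, from Abhd5, G0s2, Mgll and Pnpla3. GC boxes were in 7 of the 10 against 35.7%. E-boxes (CACGTG) were in 2 of the 10 against 7.15%, CCAAT boxes in 1 against 37.4% and TATA boxes (TATAAA) in 0 against 13.6%. The GC content of the 10 windows was 49.7% to 72.3%, and its median over all windows was 52.7%. Windows of 1 gene can overlap, and these matches describe the letters of the windows only.

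Levels of different genes were compared per kilobase of exon. In the NC library the order was Pnpla2 (267 CPM per kilobase), Lipe (91.7), G0s2 (89.3), Pnpla3 (46.4), Abhd5 (31.5), Mgll (26.1), Adrb3 (7.33), Pde3b (2.81) and Aqp7 (2.55). The counting intervals of the neighbours Lipe and G0s2, and of Pde3b and Aqp7, overlapped in that library, so these neighbours were not distinguished. In the MALAT1-knockdown library Pnpla2 (124), Lipe (42.2) and G0s2 (35.1) still led, but Pnpla3 (14.3) stood behind Abhd5 (20.5) and beside Mgll, whose counting interval (14.5 to 15.4) overlapped that of Pnpla3. Adrb3 (2.61), Pde3b (1.27) and Aqp7 (0.552) again came last, now with intervals that did not overlap. ATGL and hormone-sensitive lipase transcripts thus led the order of lipases in both libraries, and the control genes Adrb3 and Pde3b stood near its end.

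The 9 genes did not change by 1 common factor. Of the 36 pairs, 32 had a ratio that differed between the libraries beyond counting error, and in 9 the whole 95% CI lay past 1.5-fold. In the other 4 pairs the interval held 0: Lipe with Pnpla2, Lipe with Pde3b (difference 0.03, 95% CI -0.10 to 0.16), Pnpla2 with Pde3b (0.05, 95% CI -0.08 to 0.18) and G0s2 with Adrb3 (0.14, 95% CI -0.02 to 0.30). The widest difference was between Abhd5 and Aqp7, whose count ratio was 26.1 in the control against 78.3 after knockdown (1.59, 95% CI 1.26 to 1.92). These intervals do not include variation between cultures.

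**Figure D2:**
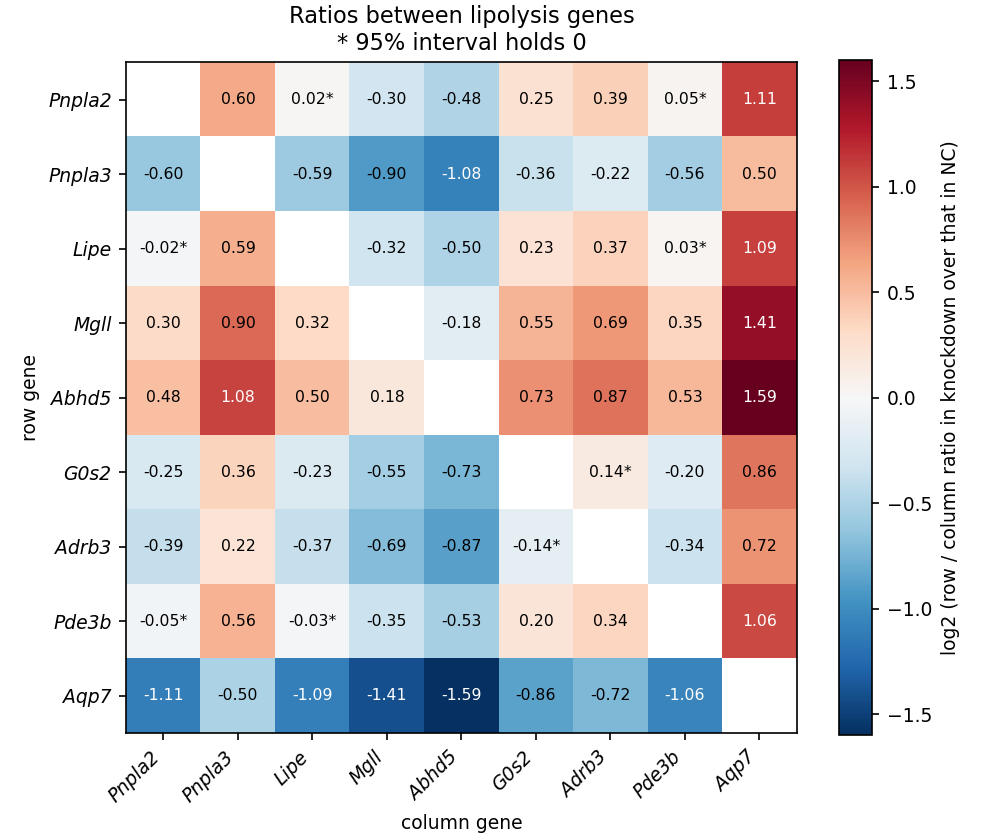
For each row gene and column gene, the log2 of their count ratio in the MALAT1-knockdown library over the same ratio in the NC library, with an asterisk where the 95% exact interval holds 0. The Abhd5 row is positive against every other gene, up to 1.59 against Aqp7, and the Aqp7 row is negative against every other gene.

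**Figure D3:**
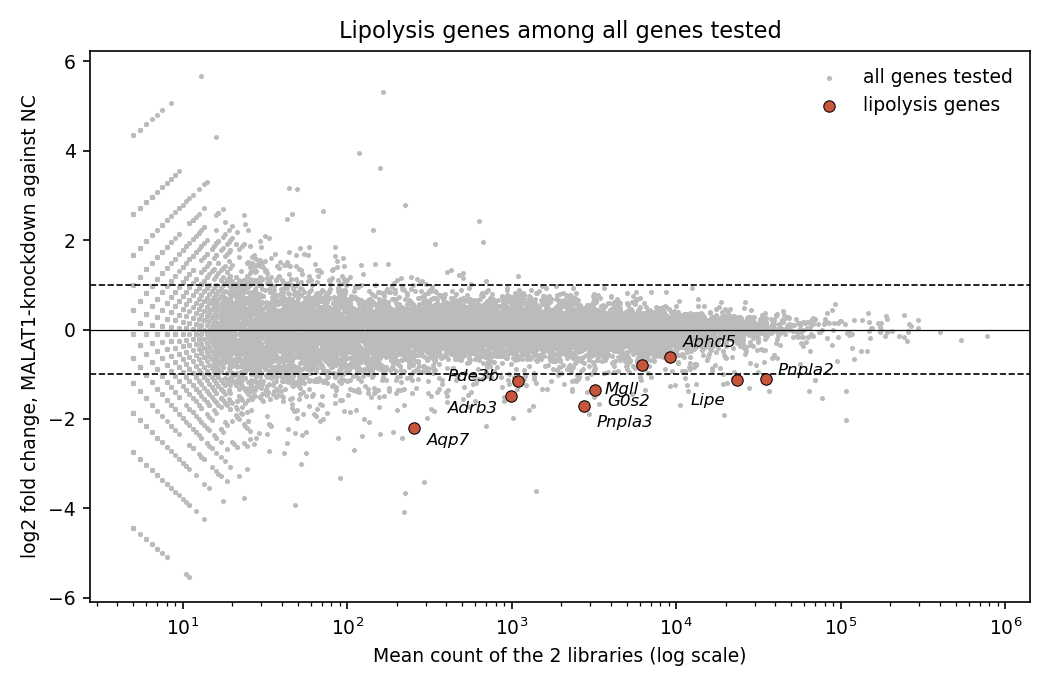
Log2 fold change of all 17356 genes tested against their mean count in the libraries (log axis), with the lipolysis genes in red and dashed lines at 2-fold. The red points lie below 0 at mean counts where few genes are that low. Of the 12139 genes with a mean of at least 100 counts, lipolysis genes included, 107 had a log2 fold change below the lipolysis genes' median of -1.15.

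The rest of the adrenergic pathway was taken from lists written from general knowledge. The share beside each count of calls below is that over all genes tested, 4.24% lower and 2.47% higher. Of the 8 other adrenergic receptors, 4 had enough counts to be tested, and 0 were called in either direction (median -0.30). Adrb1 had 2 and 3 counts, at or under the floor of 3 counts. Of the 4 tested, 3 had values below 0 and 1 had a value above 0. The alpha1-receptors Adra1b and Adra1d had values of 0.06 and -0.10. The alpha2-receptor Adra2a, named after its value was seen, had the lowest value of the 4 tested. It had 131 counts in the NC library and 75 in the MALAT1-knockdown library. Its log2 fold change was -0.91 (counting interval -1.34 to -0.49), under the threshold.

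Downstream of the receptors single genes were called lower, a share not below the 4.24% over all genes tested. In the list of G proteins, adenylyl cyclases and desensitization proteins, 1 of the 14 genes tested was called lower and 0 higher (median 0.10). Gnas, which encodes the Gs alpha subunit, had 47056 and 53989 counts (log2 fold change 0.09), Gnai2 of the inhibitory Gi had a log2 fold change of 0.09 and the cyclase Adcy6 one of -0.04. The called gene was the cyclase Adcy5, with 155 counts with the NC ASO and 78 with the MALAT1 ASO (-1.09, 95% CI -1.51 to -0.70). Of 9 tested genes of protein kinase A and its anchors and inhibitors, 1 was called lower and 0 higher (median 0.05). This was the regulatory subunit gene Prkar1b, with only 32 and 11 counts (-1.6, 95% CI -2.78 to -0.62), whereas the abundant subunits had log2 fold changes of 0.13 (Prkar1a), -0.29 (Prkar2b) and -0.29 (the catalytic subunit Prkaca).

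The calls among the other cyclic nucleotide phosphodiesterases were likewise not below the 4.24% called lower over all genes tested. Of 14 tested, 1 was called lower and 0 higher, and their median was 0.06, also with the called gene at its floor value. The called gene was Pde11a, with 12 counts in the NC library against 0 after knockdown. It was 4.31-fold lower with the 0 set at the floor of 3 counts. The counting interval allows less, with an upper 95% limit of -1.58 for the log2 fold change, or 33.4% of the control level. Pde3a, the paralog of Pde3b, had 3264 and 3928 counts, giving a log2 change of 0.16 (95% CI 0.09 to 0.23). The ratio of Pde3b to Pde3a counts was 0.452 in the control against 0.183 after knockdown (difference -1.31, 95% CI -1.46 to -1.16). Against Pde4d, with the most counts of this list and a log2 fold change of 0.03, the difference of Pde3b was -1.18 (95% CI -1.32 to -1.04), and Pde7a had a value of 0.21. Among 11 tested genes that cAMP is known to induce in many cells, 0 were called and the median was -0.01, with values of -0.17 for Per1, 0.17 for Sik1 and -0.21 for Nr4a1.

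Receptors that restrain lipolysis through Gi were mostly lower. Of 7 tested, 5 were called lower and 0 higher, with a median log2 fold change of -1.97. The lactate receptor Hcar1 had 204 counts with the NC ASO and 42 with the MALAT1 ASO (-2.37, 95% CI -2.90 to -1.90), and the niacin and ketone body receptor Hcar2 had 148 and 29 counts (-2.44, 95% CI -3.09 to -1.88). The short-chain fatty acid receptor Ffar2 had 478 and 131 counts (-1.97, 95% CI -2.26 to -1.69). The adenosine receptor Adora1, with the most counts of this list at 708 and 313, had a log2 fold change of -1.28. The succinate receptor Sucnr1 had only 27 and 3 counts, so its value of -3.07 had a 95% CI from -5.64 to -1.58. The neuropeptide Y receptor Npy1r, named after its value was seen, went the other way with 62 and 117 counts (0.80, 95% CI 0.35 to 1.28), under the threshold. The natriuretic peptide arm, a cAMP-independent route to lipolysis, had 0 of 5 genes called and a median of -0.01. The clearance receptor Npr3 (0.49) and the kinase Prkg2 (0.55) were at positive values under the threshold, and the receptor Npr2 was at -0.01. Npr1, the receptor of atrial natriuretic peptide, also named after its value was seen, was at a negative value under the threshold, with 229 and 163 counts (-0.60, 95% CI -0.90 to -0.30).

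Proteins of the lipid droplet surface, where the lipases act, were lower in part. Of 9 tested, 3 were called lower and 0 higher (median -0.61). Plin1, the fat cell perilipin that holds CGI-58 until protein kinase A phosphorylates it, had 15926 counts in the NC library against 7310 after knockdown, giving a log2 change of -1.23 (95% CI -1.27 to -1.19). The ratio of Abhd5 to Plin1 counts was 0.681 in the NC library and 1.04 in the knockdown library (difference 0.61, 95% CI 0.55 to 0.67), while Pnpla2 and Lipe differed from Plin1 by 0.13 (95% CI 0.08 to 0.17) and 0.11 (95% CI 0.06 to 0.16). The droplet fusion protein gene Cidec was called lower at -1.22 and Cidea at -3.27 on 40 and 4 counts. Plin2, the perilipin found in most cell types, had a log2 fold change of -0.56 and Plin4 one of -0.33.

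Other lipid hydrolases had 0 of 12 genes called and a median of -0.11. The lysosomal lipase gene Lipa had 11157 and 11991 counts (log2 fold change -0.003, 95% CI -0.04 to 0.03), Abhd4 had a value of -0.08 and Pnpla8 one of -0.43. Genes that handle the released glycerol and fatty acids had 4 of 9 tested genes called lower and 0 higher (median -0.70). The fatty acid binding protein genes Fabp4 and Fabp5 had log2 fold changes of -1.37 and -1.23, the acyl-CoA synthetase gene Acsl1 one of -1.38, and Aqp11, another aquaporin, one of -1.13 on 98 and 48 counts. Gk, which encodes glycerol kinase and is named here after its value was seen, had 635 and 766 counts, giving a log2 change of 0.16 (95% CI 0.01 to 0.32). The ratio of Aqp7 to Gk counts was 0.655 in the NC library and 0.127 in the knockdown library, a difference of -2.37 (95% CI -2.74 to -2.01).

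**Figure D4:**
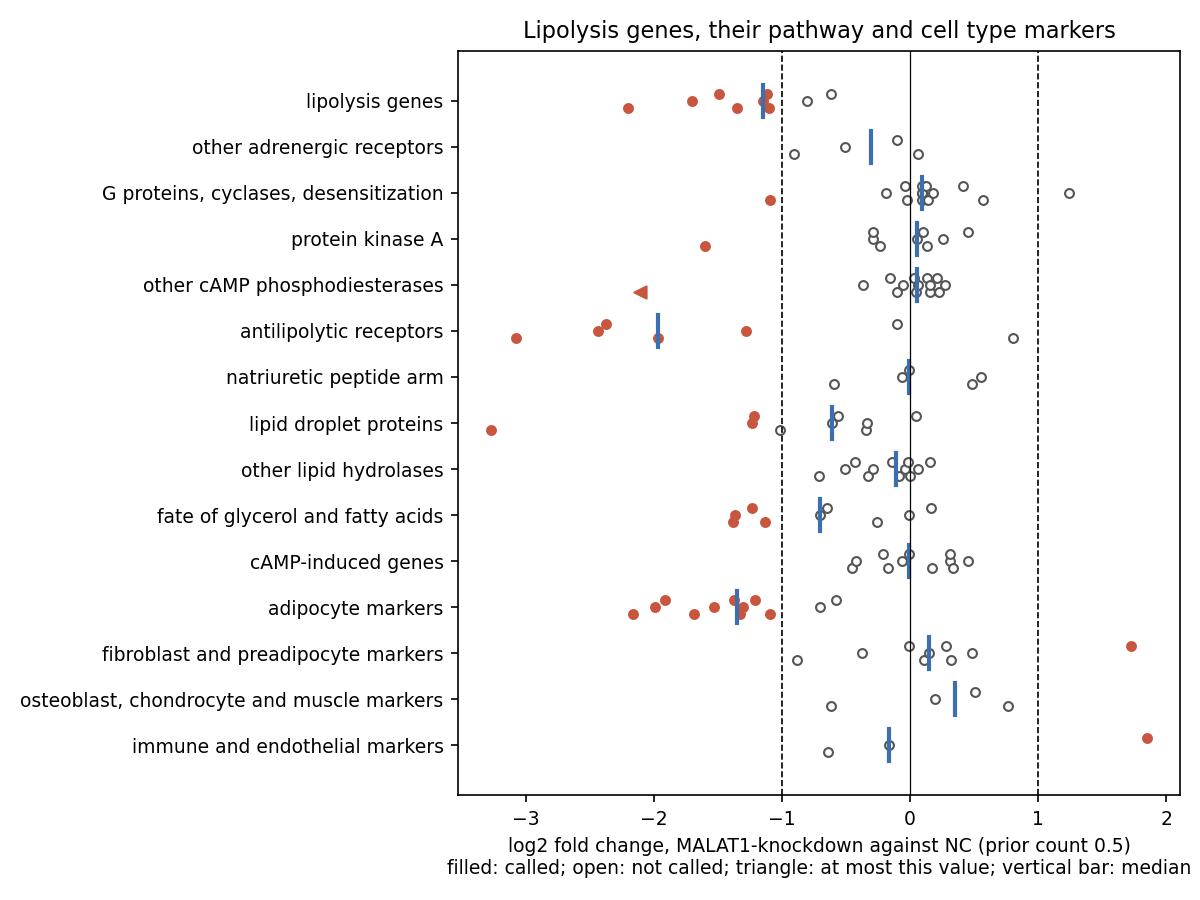
Log2 fold change of each tested gene of the lipolysis genes, the pathway lists and the marker lists, with filled points for called genes, open points for the others, a triangle for Pde11a at its bound, blue bars for medians and dashed lines at 2-fold. Filled points to the left of -1 gather in the lipolysis genes (7 of 9), the antilipolytic receptors (5 of 7) and the adipocyte markers (10 of 12). The glycerol and fatty acid genes (4 of 9) and the lipid droplet proteins (3 of 9) also hold such points. The medians of the G protein, protein kinase A, phosphodiesterase and cAMP-induced lists lie between -0.01 and 0.10.

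Markers of the adipocyte moved with the lipolysis genes. Of 13 written markers, 12 were tested, 12 were lower and 10 were called lower, with a median of -1.35. Their summed level was 5178 CPM with the NC ASO against 1904 CPM with the MALAT1 ASO (log2 fold change -1.44, 95% CI -1.45 to -1.43). Abundant markers weigh most in this sum, and Scd1 alone (-1.53) gave 1940 CPM of it with the NC ASO. Single markers ranged from -2.16 (Thrsp) to -0.57 (Trarg1), and Agpat2 (-1.09) was close to Pnpla2 and Lipe. Leptin (Lep) had 1 and 0 counts in the libraries, and the insulin-regulated glucose transporter gene Slc2a4 had 26 and 17. Scaled to this sum, with approximate (Wald) intervals, 6 of the 9 lipolysis genes were higher in the knockdown library, led by Abhd5 (0.82, 95% CI 0.78 to 0.87) and Mgll (0.64, 95% CI 0.59 to 0.70). Pnpla2 (0.34) and Lipe (0.32) were also above the sum. G0s2 was just above it (0.09, 95% CI 0.02 to 0.17), though its log2 fold change of -1.35 was that of the marker median. Pnpla3 (-0.26, 95% CI -0.35 to -0.17) and Aqp7 (-0.76, 95% CI -1.08 to -0.45) were below the sum, and for Adrb3 the interval held 0 (-0.05, 95% CI -0.19 to 0.10). How much of the change of the lipolysis genes goes with the number of adipocytes was not tested.

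Of the few tested markers of other cell types, 0 were called lower, which is near the share of 4.24% over all genes tested. Of 11 fibroblast and preadipocyte markers, 9 were tested, with 1 called higher (Cd34, 19 and 69 counts), 0 lower, a median of 0.15 and a summed level of 7105 and 7615 CPM. The values of 3 of the 9 were below 0, among them decorin (Dcn), with 2247 and 1315 counts (-0.88, 95% CI -0.98 to -0.78), and Pi16 (-0.38), and Dlk1 had 0 counts in both libraries. Of 9 osteoblast, chondrocyte and muscle markers, 4 were tested and 0 called (median 0.35, or -0.21 over genes with at least 1 summed count, summed level 161 and 216 CPM), and Myod1, Myog and Acan had 0 counts in both libraries. Of the 4, 3 were higher and 1 was lower, the muscle gene Des with 448 and 314 counts (-0.62, 95% CI -0.83 to -0.41). Of 6 immune and endothelial markers, 3 were tested (median -0.16, or 0.70 over genes with at least 1 summed count, summed level 3.48 and 2.54 CPM), with 1 called higher (Csf1r, 3 and 13 counts), and Ptprc and Adgre1 had 0 counts in both libraries. The other 2 tested were lower, among them Cd68, which had the most counts of this list at 172 and 119 (-0.64, 95% CI -0.99 to -0.29).

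The nearest protein-coding genes on either side of the lipolysis genes gave the level of the surrounding region. Genes that overlap a lipolysis gene, such as Lamb3 over G0s2 (482 and 243 counts), were not counted as flanking. Of 18 flanking genes, 11 were tested, and 0 were called, against 4.24% called lower and 2.47% higher over all genes tested. With 11 genes, 0 calls is near that share. All 11 had log2 fold changes below 0, from -0.72 (Camk1g, beside G0s2) to -0.01 (Ano10, beside Abhd5), with a median of -0.35 against -0.003 for all genes tested, of which 50.4% were below 0. Rplp2 and Cracr2b, which flank Pnpla2, had values of -0.21 and -0.35, and Nfx1 and Aqp3, which flank Aqp7, had values of -0.04 and -0.70, the latter on 26 and 17 counts. Hsd11b1, on the other side of G0s2, had 7404 and 5129 counts and a log2 fold change of -0.64. GENCODE M21 places other genes over 6 of the 9 lipolysis genes. Apart from Lamb3 over G0s2, those with counts in the table were 4732471J01Rik over Lipe, with 131 and 79 counts or 0.421% and 0.512% of those of Lipe, and Gm26588 over Mgll, with 69 and 44 counts. No source used here says whether reads were counted by strand, so reads of such overlapping pairs cannot be told apart.

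**Figure D5:**
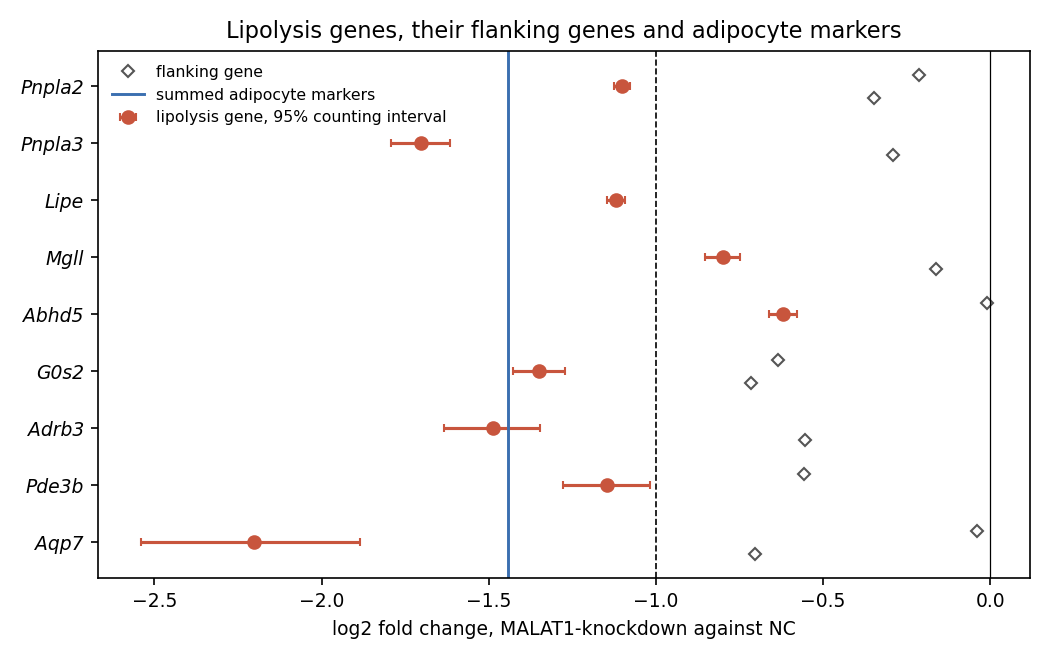
Log2 fold change of each lipolysis gene (red, with its 95% counting interval), of its tested flanking protein-coding genes (diamonds) and of the summed adipocyte markers (blue line, -1.44), with a dashed line at 2-fold. Each flanking gene lies to the right of its lipolysis gene, and Pnpla3, Aqp7 and Adrb3 lie to the left of the blue line, which the interval of Adrb3 crosses.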

How the data were processed

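Total RNA of 1 NC library and 1 MALAT1-knockdown library was depleted of rRNA and made into directional libraries by the authors. The authors deposited raw counts of reads per gene symbol, without normalization. The submitters' processing notes name HISAT2 and GRCm38. The counting tool, the annotation and the treatment of strand, duplicate and multi-mapped reads are not given in the sources used here, and duplicated reads would make the intervals too narrow. Each column was assigned to the library with the same label.

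Genes with at least 10 counts summed over the libraries were tested. Library sizes were scaled by TMM factors (0.992 and 1.01, edgeR 4.0.16, R 4.3.3). Log2 fold changes used a prior count of 0.5. The test was a two-sided exact binomial test with Benjamini-Hochberg adjustment over all genes tested (scipy 1.17.1, Python 3.11.15), since edgeR's quasi-likelihood test needs replicates. Intervals of fold changes are 95% Clopper-Pearson limits, and those of ratios between genes come from the exact conditional odds ratio. A count of 0 was set at a floor of 3 counts, or 0.0520 CPM (NC) and 0.0483 CPM (knockdown). Exon lengths are unions of GENCODE M21 exons. Grk2 and Trarg1 were matched by older symbols.

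Besides all 9 genes, the called genes and the 3 genes with the most counts of each of 10 pathway lists are named, with other genes said to be chosen after their values were seen or named as partners in a ratio, markers or neighbours. Of 1 list, 1 gene that this rule names is not reported here. The members and lists were chosen with earlier results of these data known. The ratios to pathway genes, the scaling on adipocyte markers, the neighbours and the second background were added after the data were seen. With 2 libraries no likeness of pattern across samples could be measured. Alternatives were other scalings (library totals, DESeq2 1.42.0 size factors, upper quartile), filters, prior count, fold thresholds, edgeR's exact test with a preset BCV, and counts divided by 4.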

Additional observations from a re-analysis of the deposited data

How the results depend on the processing

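The 7 calls among the lipolysis genes were the same under library totals, DESeq2 size factors, upper-quartile factors, both other filters, a prior count of 2, the fold alone, a whole interval past 2-fold, a preset BCV of 0.1 and counts divided by 4, and with a 1.5-fold threshold all 9 were called. Scalings and prior moved no log2 fold change of the 9 genes by more than 0.0221, and 0 were called higher under any setting. With a preset BCV of 0.2 the count was 2 and with 0.4 it was 0. Variation between cultures, which 1 library per group cannot show, therefore sets whether these calls hold.

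The background was less stable. Genes called lower (736) and higher (428) over the whole table were 405 and 169 when both libraries had to reach 10 counts, 1292 and 813 with a 1.5-fold threshold, 289 and 80 with the whole interval past 2-fold, 466 and 201 with a BCV of 0.1, 95 and 22 with 0.2, 0 and 1 with 0.4, and 212 and 48 with counts divided by 4. With the fold alone 678 were higher. Of the 36 pairs of lipolysis genes, 9 had the whole interval past 1.5-fold. With counts divided by 4, 28 differed, 4 fewer (Adrb3 with Pde3b, Pnpla3 with Adrb3, Pnpla3 with Aqp7 and G0s2 with Pde3b), and 4 were past 1.5-fold. Medians of lists with few tested genes moved when 1 summed count was enough, that of the other adrenergic receptors from -0.30 to -0.02, of the glycerol and fatty acid genes from -0.70 to -0.92, of the osteoblast, chondrocyte and muscle markers from 0.35 to -0.21 and of the immune and endothelial markers from -0.16 to 0.70 (and to -0.40 with 10 counts in both libraries). No paired analysis was possible because each group has 1 library, and for the same reason no library could be left out.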
